A study of Mus musculus with 2 samples.

Results

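The proteasome subunit genes are the genes whose symbols start with Psma, Psmb, Psmc, Psmd or Psme followed by a digit, without the 3 inducible immunoproteasome genes Psmb8, Psmb9 and Psmb10 and without pseudogenes. This naming rule, which uses no measured value, found 42 genes among the 28692 listed, on 16 chromosomes. They comprise 8 alpha ring genes, 4 catalytic and 4 other beta ring genes, 6 ATPases and 11 non-ATPase subunits of the regulatory particle, 3 chaperones that build its base, 5 activator genes and Psmc3ip. Psmc3ip matches the rule by name only and encodes a cofactor of meiotic recombination, not a subunit.

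The genes were measured in 2 droplet single-cell RNA libraries of C57BL/6 mouse bone marrow cells, 1 with a Cxxc5 knockdown and 1 control. Stem and progenitor cells had been enriched from the marrow of 5 mice and infected with a retrovirus that carried an shRNA against Cxxc5 or, for the control, one without a mouse target. GFP-positive LSK cells, which are lineage-negative, Sca-1-positive and Kit-positive and rich in stem and progenitor cells, were sorted. They grew for 3 days in medium with 20% serum and the cytokines GM-CSF and SCF (each 10 ng/ml), and each library pooled 5 samples. The labels leave unclear if the 2 pools share their mice. With 1 pooled library per group there is no replicate check, so no p-value is given. Differences are described by their size, and every interval is a 95% interval for counting error only, which leaves out the spread between cells, mice and infections.

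The proteasome degrades proteins tagged with ubiquitin. Its 20S core is a barrel of stacked alpha and beta rings, in which Psmb5, Psmb6 and Psmb7 carry the active sites, and its 19S particle unfolds substrates with a ring of ATPases and recognises ubiquitin through non-ATPase subunits. Activators can cap the core instead, and in antigen-presenting cells the PA28 activator (Psme1 and Psme2) works together with the immunoproteasome to shape peptides for MHC class I.

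A total of 6015 barcodes with 62910229 UMIs (unique molecular identifiers, which count each captured molecule once) came from the Cxxc5 knockdown library, and 2925 barcodes with 49333454 UMIs from the control library. Of these, 6004 and 2912 cells were kept, at a median of 10599 UMIs in knockdown and 17197 UMIs in control cells, and 26 barcode sequences occurred in both libraries. Levels are given as CPM, the UMIs of a gene for every 1000000 UMIs of the same cells, which does not depend on transcript length in this 3' assay. The targeted transcript Cxxc5 stood at 1.16 CPM in the knockdown and 9.38 CPM in the control library (log2 ratio -3.01, interval -3.39 to -2.65). Cells were assigned to 6 gates by the share of their UMIs from marker genes, so a gate is a range of a marker score and not a proven cell type.

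The promoters of 4 members named in the results are shown. Psme1 (ENSMUSG00000022216) and Psme2 (ENSMUSG00000079197) lie 5911 bases apart on chromosome 14, on opposite strands, and departed together from the other members across the gates. Psmb5 and Psmb6 encode constitutive active sites and hold a match to the antioxidant response element core, the motif read by the proteasome gene activator NRF1 with small MAF proteins. Each sequence, from RefSeq on GRCm38.p6, runs 5' to 3' over 300 bases, from 250 before to 50 after the annotated start. Capitals mark the matched motif.
Psme1, chr14:55578244-55578543, plus strand: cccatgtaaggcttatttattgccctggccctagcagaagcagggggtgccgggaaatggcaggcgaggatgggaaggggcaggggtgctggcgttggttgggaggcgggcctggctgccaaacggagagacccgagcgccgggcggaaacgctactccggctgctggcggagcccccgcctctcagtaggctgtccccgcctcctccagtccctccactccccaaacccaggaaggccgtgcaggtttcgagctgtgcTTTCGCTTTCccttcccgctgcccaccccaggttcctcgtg
Psme2, chr14:55591052-55591351, minus strand: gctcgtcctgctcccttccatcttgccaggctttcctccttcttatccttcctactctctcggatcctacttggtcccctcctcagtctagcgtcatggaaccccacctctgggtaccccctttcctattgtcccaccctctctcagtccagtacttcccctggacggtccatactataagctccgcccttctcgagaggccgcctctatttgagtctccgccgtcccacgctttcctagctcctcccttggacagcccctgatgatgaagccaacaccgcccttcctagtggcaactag
Psmb5, chr14:54617946-54618245, minus strand: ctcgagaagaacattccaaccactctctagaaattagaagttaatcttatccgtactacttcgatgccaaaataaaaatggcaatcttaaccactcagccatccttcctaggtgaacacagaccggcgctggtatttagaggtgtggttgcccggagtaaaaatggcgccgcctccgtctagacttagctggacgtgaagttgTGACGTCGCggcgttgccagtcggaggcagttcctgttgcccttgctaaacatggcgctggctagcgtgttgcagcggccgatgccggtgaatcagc
Psmb6, chr11:70525107-70525406, plus strand: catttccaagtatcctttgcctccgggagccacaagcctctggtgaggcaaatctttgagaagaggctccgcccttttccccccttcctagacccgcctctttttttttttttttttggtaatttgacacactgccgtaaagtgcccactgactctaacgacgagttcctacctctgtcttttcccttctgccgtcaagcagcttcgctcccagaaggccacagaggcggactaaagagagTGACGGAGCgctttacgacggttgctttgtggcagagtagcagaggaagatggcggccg
The capitals in Psmb5 and Psmb6 match TGACNNNGC, and those in Psme1 match TTTC, any 2 bases and TTTC again, the core of the interferon-stimulated response element, both searched on both strands. The first motif begins with TGAC, letters that AP-1 and CREB sites also hold. Psme2 has a second annotated start nearby, and neither of its promoters held either motif.

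Promoter sequence was at hand for 35 of the 42 genes. TGACNNNGC was found in 6 of the 35, or 17.1%, which were Psmb5, Psmb6, Psmc6, Psmd9, Psmd12 and Psme4. The share among the 27025 genes with a promoter of this length was 14.0%. The interferon-response motif was found in 4 of the 35, or 11.4%, which were Psmb3, Psmd4, Psmd9 and Psme1, against 3.99% of the 27025 genes. Psmb8, Psmb9 and Psmb10 held neither motif in this window. Psma8, Psmb1, Psmb2, Psmb7, Psmc3, Psmd3 and Psmd7 were not looked at in this way.

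Over all cells the summed proteasome transcripts were nearly equal in the libraries. They made up 8283 CPM, or 0.83% of all UMIs, in Cxxc5 knockdown cells and 7999 CPM, or 0.80%, in control cells. The ratio was 1.036-fold (log2 0.05, interval 0.04 to 0.06), close to the median log2 ratio of 0.04 over the 4798 genes with at least 20 CPM in a library. The summed log2 ratio was 0.12 in cells thinned to 5000 UMIs and 0.02 after median-of-ratios scaling. Thinning also left out the 641 knockdown and 115 control cells of lower depth, so its value mixes both changes. Of the 42 genes, 39 reached 20 CPM. None of the 39 was 1.2-fold higher and none 1.2-fold lower in the knockdown library, where 3.02% and 4.06% of all genes measured were. Their median log2 ratio was 0.06, 30 lay above and 9 below equality, and the full range was -0.12 to 0.18.

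**Figure D1:**
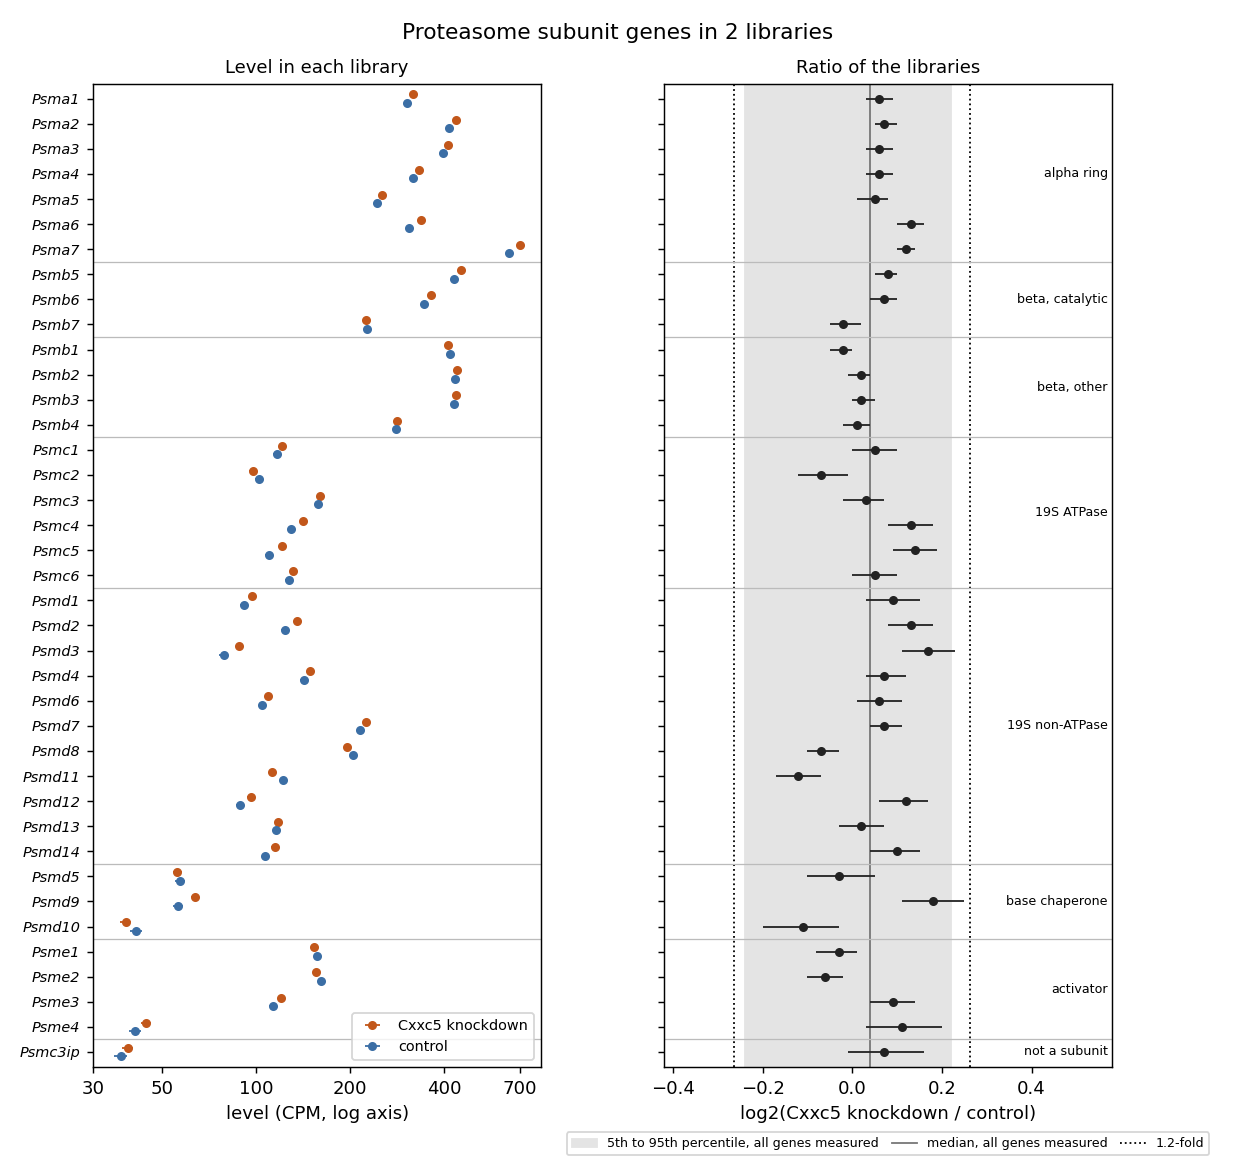
Levels of the 39 genes of at least 20 CPM in the Cxxc5 knockdown and control libraries (left, CPM on a log axis) and their log2 knockdown over control ratios (right), grouped by role. Bars are 95% counting intervals, the grey band spans the 5th to 95th percentile of all 4798 genes (-0.24 to 0.22), and dotted lines mark 1.2-fold. All 39 ratios lie inside the dotted lines.

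The alpha ring, which gates the barrel, held the most abundant member. Psma7 stood at 698 CPM in knockdown and 644 CPM in control cells (log2 0.12, interval 0.10 to 0.14). The other alpha genes except Psma8 lay between 253 and 437 CPM in knockdown and between 245 and 416 CPM in control cells, with Psma5 lowest and Psma2 highest in each library. Psma8, the testis form of the alpha subunit that Psma7 encodes, had only 210 UMIs or 3.34 CPM in knockdown and 130 UMIs or 2.64 CPM in control cells. Its log2 ratio of 0.34 had an interval of 0.02 to 0.67 and rests on counts too low for the 20 CPM minimum. Together the alpha genes took 33.7% of the family's UMIs in knockdown and 32.9% in control cells.

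Among the catalytic beta subunits, Psmb5, the chymotrypsin-like site, was the most abundant at 453 CPM in knockdown and 429 CPM in control cells (log2 0.08, interval 0.05 to 0.10). Psmb6, the caspase-like site, had 363 CPM in knockdown and 346 CPM in control cells (0.07). Psmb7, the trypsin-like site, had 224 CPM in knockdown and 227 CPM in control cells (-0.02, interval -0.05 to 0.02). Psmb7 was thus measured at a lower level than the other catalytic genes in both libraries, although each assembled core carries these subunits in equal number. Psmb11, the thymus-specific catalytic subunit, had 0 UMIs in both libraries, which allows at most 0.0477 CPM in knockdown and 0.0609 CPM in control cells (3 counts per library). Of the non-catalytic beta genes, Psmb2 had 439 CPM in knockdown and 433 CPM in control cells, and the log2 ratios of these 4 genes lay between -0.02 and 0.02.

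The regulatory particle genes of the naming rule were measured at lower levels per gene than the core. The rule leaves out Shfm1, a lid subunit gene, and Adrm1, another particle gene, listed here with the associated and regulatory proteins. The 16 core genes took 65.2% of the family's UMIs in knockdown and 65.0% in control cells, and the 17 genes of the 19S particle 26.7% in each library. Among the 39 genes of at least 20 CPM, the highest knockdown over control ratios were found here or among its chaperones. Psmd9, a base assembly chaperone, had 63.8 CPM in knockdown and 56.3 CPM in control cells (log2 0.18, interval 0.11 to 0.25). Psmd3, a non-ATPase subunit of the lid, had 88.3 CPM in knockdown and 78.6 CPM in control cells (0.17, interval 0.11 to 0.23), and the ATPase Psmc5 had 121 and 110 CPM (0.14, interval 0.09 to 0.19). The lowest ratios of the 39 genes also fell here or among the chaperones. Psmd11, a lid subunit, had 112 CPM in knockdown and 122 CPM in control cells (-0.12, interval -0.17 to -0.07). Psmd10, the chaperone also called gankyrin, had 38.2 CPM in knockdown and 41.4 CPM in control cells (-0.11), and the ATPase Psmc2 had 97.4 and 102 CPM (-0.07). These members stayed within the 5th to 95th percentile of all genes.

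Of the activators, Psme1 had 154 CPM in knockdown and 157 CPM in control cells (log2 -0.03) and Psme2, its partner in PA28, 155 and 162 CPM (-0.06). Psme2b, a close copy of Psme2, had 3.26 CPM in knockdown and 3.78 CPM in control cells (-0.21, interval -0.50 to 0.08). How reads shared by Psme2 and Psme2b were counted is not stated in the labels, so both levels are uncertain. Psme3, which forms the nuclear activator PA28 gamma, had 120 and 113 CPM (0.09), and Psme4, the PA200 activator, had 44.3 and 40.9 CPM (0.11). Of the 39 genes of at least 20 CPM, Psmc3ip was among the least abundant with Psme4 and Psmd10, at 38.7 CPM in knockdown and 36.8 CPM in control cells.

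Genes that build, assist or regulate the proteasome showed the same closeness of the libraries. None of the 3 immunoproteasome genes, 5 core assembly chaperones, 12 associated and regulatory proteins, 4 NRF1 pathway genes, 5 ubiquitin and E1 genes or 6 p97 segregase genes that reached 20 CPM was 1.2-fold apart. Pomp, which matures the core, had 347 CPM in knockdown and 365 CPM in control cells (log2 -0.07). Nfe2l1, which encodes NRF1, had 26.2 and 24.3 CPM (0.11). The immunoproteasome genes Psmb8, Psmb9 and Psmb10 had 314, 61.0 and 121 CPM in knockdown, against 322, 66.3 and 108 CPM in control cells.

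The family was next compared between cell gates. The late neutrophil gate (Ltf, Camp, Ngp and other granule genes) held 499 knockdown and 333 control cells, the early neutrophil gate (S100a8, S100a9, Fcnb, Stfa1) 835 and 487, the monocyte gate 537 and 383, and the dendritic gate (MHC class II genes, Cd74, Ccl17) 64 and 64. The mast cell and basophil gate held 175 knockdown and 99 control cells, and the granulocyte-monocyte progenitor gate (Mpo, Elane, Prtn3, Ctsg) 3006 and 1137. A further 14.8% of knockdown and 14.1% of control cells met no gate. The gates have soft borders. Of the late neutrophil cells, 84 of 499 in the knockdown and 54 of 333 in the control library lay within 1.5-fold of the threshold, and of the monocyte cells 225 of 537 and 126 of 383. For the dendritic gate these were 4 of 64 and 3 of 64, for the progenitor gate 913 of 3006 and 369 of 1137, for the early neutrophil gate 192 of 835 and 85 of 487, and for the mast cell and basophil gate 57 of 175 and 21 of 99.

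Other markers remained inside the gates. Late neutrophil cells held a median of 128.7 progenitor marker UMIs per 10000 in the knockdown and 69.35 in the control library, and dendritic cells a median of 5.59 and 3.24. Monocyte cells held a median of 71.2 and 61.8 such UMIs, and mast cell and basophil cells 26.7 and 16.0. Early neutrophil cells held a median of 272.0 in the knockdown and 248.5 in the control library. That was above the progenitor gate itself, at 178.6 and 172.7, so these gates overlap in progenitor markers. The defining markers of erythroid, lymphoid, eosinophil and megakaryocyte cells had a median of 0 in all gates.

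The summed family was most abundant in the progenitor gate, at 8598 CPM in knockdown and 8523 CPM in control cells, and in the early neutrophil gate, at 8590 and 8168 CPM. The monocyte gate had 8112 CPM in knockdown and 7998 CPM in control cells, and the mast cell and basophil gate 7260 and 6757 CPM. The dendritic gate had 5963 CPM in knockdown (interval 5763 to 6167) and 6487 CPM in control cells (6327 to 6651). The late neutrophil gate had 6191 CPM in knockdown (6114 to 6268) and 5466 CPM in control cells (5394 to 5539). In knockdown cells the progenitor and early neutrophil gates did not differ beyond their counting intervals, and the dendritic and late neutrophil intervals also overlapped. In control cells the late neutrophil gate was lower than the dendritic gate, with no overlap of the intervals. When cells of at least 5000 UMIs were thinned to that depth, late neutrophil cells held a median of 30 proteasome UMIs in the knockdown library. They held 24 in the control library, and progenitor cells held 43 and 41. This left out 641 knockdown and 115 control cells of lower depth.

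**Figure D2:**
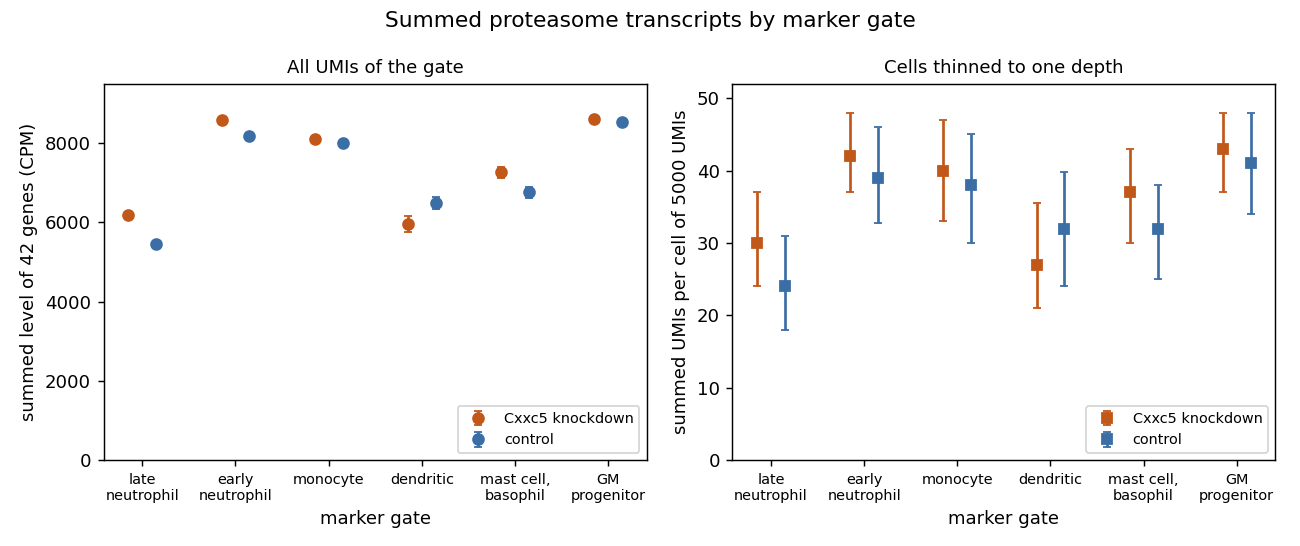
Summed level of the 42 genes in 6 marker gates of the Cxxc5 knockdown and control libraries, as CPM with 95% counting intervals (left) and as UMIs per cell after thinning to 5000 UMIs, with the median and quartiles over cells (right). Late neutrophil and dendritic cells are lowest, with 6191 and 5963 CPM in the knockdown and 5466 and 6487 CPM in the control library; after scaling to the median gene the late neutrophil gate is level with the progenitor gate (log2 0.08 and -0.02).

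Late neutrophil cells carried fewer transcripts of most subunits, as CPM, than progenitor cells. The sum was 0.720-fold in the knockdown (log2 -0.47, interval -0.49 to -0.46) and 0.641-fold in the control library (-0.64, interval -0.66 to -0.62). At 1.5-fold, 18 of 39 genes were lower in the knockdown library, where 48.1% of all genes were, and 23 of 39 in the control library, where 51.4% were. None was 1.5-fold higher, against 10.0% of all genes in the knockdown and 10.4% in the control library. All 18 of the knockdown library were also lower in the control library, against 44.8% of all genes lower in both. The members' median log2 ratio of -0.47 in the knockdown and -0.63 in the control library lay near that of all genes, -0.56 and -0.62. The late neutrophil markers and other marker genes took 19.8% of all UMIs in this gate in each library, against 2.08% and 2.06% in the progenitor gate.

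The late neutrophil difference depended on the scaling. A median-of-ratios scaling, which sets the median gene to equality, moved the sum to a log2 ratio of 0.08 in the knockdown and -0.02 in the control library. On that scale Psmd3 and Psmd7 were 1.5-fold lower in both libraries and Psmd10 was 1.5-fold higher, 2 and 1 of 39. Of all genes, 18.1% were lower and 19.6% higher in both libraries on that scale. Psmd3, a lid subunit, had 37.9 CPM in late neutrophil and 97.2 CPM in progenitor cells of the knockdown library, and 30.8 and 89.7 CPM in the control library. The log2 ratios were -1.36 (interval -1.60 to -1.12) in knockdown and -1.54 (-1.82 to -1.28) in control cells, or -0.80 and -0.93 after the scaling. Psmd7, the lid subunit that pairs with the deubiquitinase encoded by Psmd14, had 109 CPM in late neutrophil and 244 CPM in progenitor cells of the knockdown library, and 89.8 and 246 CPM in the control library. Its log2 ratios of -1.16 and -1.45 became -0.60 and -0.84 after the scaling. Both genes were low in late neutrophil cells of each library with no overlap of the counting intervals.

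Psmd10 moved the other way, a pattern singled out after its values were seen. It had 49.3 CPM in late neutrophil and 37.8 CPM in progenitor cells of the knockdown library, and 57.0 and 39.8 CPM in the control library. The log2 ratio was 0.38 (interval 0.16 to 0.60) in knockdown and 0.52 (0.30 to 0.73) in control cells, and 0.94 and 1.14 after the scaling. It was the only 1 of the 39 genes above the progenitor level in this gate in both libraries. Beyond the naming rule, Shfm1, the small lid subunit now called Sem1, had 1441 CPM in late neutrophil and 1030 CPM in progenitor cells of the knockdown library, and 1414 and 1008 CPM in the control library.

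The summed core genes and the summed regulatory particle genes of the naming rule were both lower in this gate. The 20S core stood at 4093 CPM in late neutrophil and 5617 CPM in progenitor cells of the knockdown library (0.729-fold) and at 3575 and 5562 CPM in the control library (0.643-fold). The 19S particle genes of the naming rule stood at 1593 and 2314 CPM in the knockdown library (0.688-fold). In the control library they stood at 1387 and 2304 CPM (0.602-fold). Shfm1, higher in late neutrophil cells and more abundant than any of these genes, is not in that sum. Adrm1, 1.5-fold lower in late neutrophil cells of both libraries, is not in it either. The values thus do not order the whole particle against the core. By gene, 5 of 14 measured core genes and 9 of 17 particle genes were 1.5-fold lower in the knockdown library, and 8 of 14 and 11 of 17 in the control library. The share among all genes was 48.1% in the knockdown and 51.4% in the control library, and the difference between core and particle was not tested. Within the alpha ring Psma7 had a log2 ratio of -0.81 in knockdown and -0.97 in control cells, whereas Psma2 had -0.10 and -0.36 and Psma6 -0.05 and -0.29. After scaling to the median gene, Psma7 stayed below the progenitor level, at -0.25 in knockdown and -0.35 in control cells.

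The active-site genes also differed among themselves in this gate. Psmb6 had 231 CPM in late neutrophil and 386 CPM in progenitor cells of the knockdown library, and 195 and 378 CPM in the control library (log2 -0.74 and -0.96). Psmb5 had 384 and 473 CPM in the knockdown library and 324 and 475 CPM in the control library (-0.30 and -0.55). Psmb7 had 180 and 228 CPM in the knockdown and 169 and 240 CPM in the control library (-0.34 and -0.51). After the median scaling Psmb5 turned to 0.26 and 0.06, while Psmb6 stayed at -0.19 and -0.34. The PA28 genes lay nearer the progenitor level than these. Psme1 was at log2 -0.10 in knockdown and -0.04 in control cells, and Psme2 at -0.19 and -0.23. After the median scaling they lay above it, at 0.46 and 0.58 for Psme1 and 0.37 and 0.38 for Psme2. Of the other activators, Psme3 was lower by log2 -0.92 in knockdown and -1.02 in control cells, and Psme4 by -1.22 and -1.04.

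Other genes of the pathway were mixed in late neutrophil cells. Of the 5 core assembly chaperones, 4 were 1.5-fold lower in the knockdown and 5 in the control library. Psmg3, a chaperone of alpha ring assembly, had 26.4 CPM in late neutrophil and 92.6 CPM in progenitor cells of the knockdown library, and 20.5 and 84.2 CPM in the control library. Of the p97 segregase genes, which extract ubiquitinated proteins, 5 of 6 were lower in the knockdown and 4 of 6 in the control library, and Vcp itself had log2 ratios of -1.39 and -1.49. Of the 12 measured associated and regulatory proteins, 8 were lower in the knockdown and 7 in the control library, Adrm1 in both. Of the ubiquitin and E1 genes only Uba1 was lower, 1 of 5 in each library. Of the NRF1 pathway genes, 2 of 4 were lower in the knockdown library, and in the control library 2 of 5 were lower and 1, Ngly1, higher. Ngly1, which encodes the N-glycanase that processes NRF1, had 14.95 CPM in late neutrophil and 10.45 CPM in progenitor cells of the knockdown library, below the 20 CPM minimum, and 22.5 and 11.7 CPM in the control library. Nfe2l1 stood at 11.96 CPM in late neutrophil and 28.7 CPM in progenitor cells of the knockdown library, and at 12.3 and 26.5 CPM in the control library. The all-gene shares given above for this gate, 48.1% and 51.4%, are the level to read these counts against.

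Cytosolic ribosomal protein genes took 19.5% of UMIs in late neutrophil and 27.9% in progenitor cells of the knockdown library, and 20.7% and 28.1% in the control library. Nuclear-encoded respiratory chain genes took 2.65% and 3.45% in the knockdown and 2.50% and 3.43% in the control library. Both families were thus lower beside the proteasome genes. Cells of the late gate were also shallower, at a median of 7914 UMIs against 11337 in knockdown progenitor cells, and 11542 against 19830 in control cells. The part of depth in the result was not tested, beyond the thinned values above.

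Early neutrophil cells, which held more progenitor marker UMIs than the progenitor gate itself, had the family near the progenitor level. The sum was 0.999-fold in the knockdown and 0.958-fold in the control library, and 0 of 39 genes were 1.5-fold higher or lower. Of all genes 4.81% were higher and 10.6% lower in the knockdown library, and 5.89% and 13.4% in the control library. After scaling to the median gene, which had shifted by -0.15 in the knockdown and -0.17 in the control library, the sums were above the progenitor level by log2 0.15 and 0.11. Psma6 was among the members whose own level peaked in this gate, 13 in the knockdown and 7 in the control library. It had 416 CPM in early neutrophil and 339 CPM in progenitor cells of the knockdown library, and 364 and 321 CPM in the control library. It was named after its values were seen.

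The dendritic gate, with 64 cells per library, showed a split within the family. The sum was 0.694-fold the progenitor level in the knockdown (log2 -0.53, interval -0.58 to -0.48) and 0.761-fold in the control library (-0.39, interval -0.43 to -0.36). At 1.5-fold, 25 of 39 genes were lower in the knockdown library, where 29.2% of all genes were, and 17 of 39 in the control library, where 30.3% were. Of these, 15 were lower in both libraries, against 21.3% of all genes. The members' median log2 ratio was -0.70 in knockdown and -0.55 in control cells, against -0.23 and -0.24 for all genes. After the median scaling the sum remained lower, at -0.30 and -0.15. On that scale Psmc3, Psmc3ip and Psmd7 were 1.5-fold lower in both libraries, 3 of 39 against 10.9% of all genes. Psmc3ip rested on only 8 knockdown and 17 control UMIs in dendritic cells. The 20S core had 0.674-fold the progenitor level in knockdown and 0.736-fold in control cells. The 19S particle genes of the naming rule had 0.618-fold and 0.679-fold. Respiratory chain genes were also lower in this gate, at log2 -0.31 in the knockdown and -0.29 in the control library. Ribosomal protein genes were higher, at 0.20 and 0.19. Dendritic cells were shallower, at a median of 7894 UMIs against 11337 in knockdown progenitor cells, and 14349.5 against 19830 in control cells. The part of depth was not tested.

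The PA28 genes were the 2 of 39 that were 1.5-fold higher in dendritic cells of each library, where 18.2% of all genes in the knockdown and 17.1% in the control library passed that fold. Psme1 had 272 CPM in dendritic and 135 CPM in progenitor cells of the knockdown library, and 308 and 134 CPM in the control library. The log2 ratios were 1.01 (interval 0.77 to 1.25) in knockdown and 1.2 (1.02 to 1.38) in control cells. Psme2 had 253 and 143 CPM in the knockdown library and 273 and 146 CPM in the control library (0.82, interval 0.57 to 1.06, and 0.90, interval 0.71 to 1.08). Scaling to the median gene widened these ratios to 1.25 and 1.44 for Psme1 and to 1.05 and 1.14 for Psme2, on a scale where 17.6% of all genes were 1.5-fold higher in both libraries. Psme3 and Psme4, which form other caps, went the opposite way. Psme4 had 21.2 CPM in dendritic and 50.6 CPM in progenitor cells of the knockdown library, and 29.3 and 47.9 CPM in the control library. Its dendritic levels rest on only 12 knockdown and 28 control UMIs. The Psme1 promoter printed above carries the interferon-response match 9 bases after its start, and that of Psme2 carries none. Psmb3, Psmd4 and Psmd9, which also carry this match, were below the progenitor level in dendritic cells. Their log2 ratios in knockdown and control cells were -0.80 and -0.45, -0.86 and -0.42, and -0.70 and -0.39. The part of the motif in these levels was not tested.

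**Figure D3:**
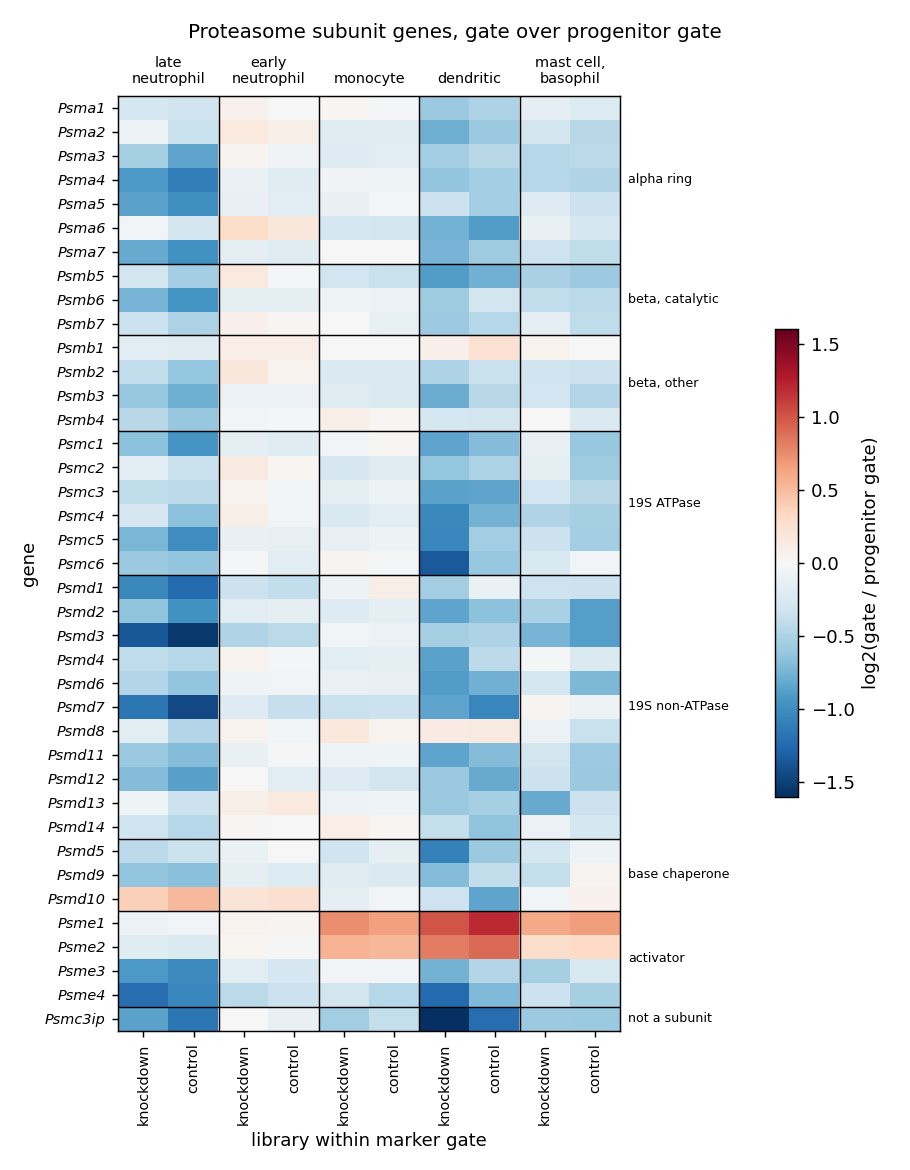
Log2 ratio of each of 39 genes (rows, grouped by role) in 5 marker gates over the progenitor gate, with the Cxxc5 knockdown column left of the control column in each gate. Blue is lower and red higher than in progenitor cells; Psme1 and Psme2 are red in the monocyte, dendritic and mast cell and basophil gates and Psmd10 in the neutrophil gates, while values are ratios of CPM and median scaling turns many late neutrophil ratios, such as that of Psmb5, above 0.

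PA28 genes were also high in monocyte cells and in ungated cells. In ungated cells their sum was 1.344-fold the progenitor level in the knockdown and 1.374-fold in the control library. Psme1 had 225 CPM in monocyte and 135 CPM in progenitor cells of the knockdown library, and 211 and 134 CPM in the control library (log2 0.74 and 0.66). Psme2 had 211 and 143 CPM in the knockdown and 211 and 146 CPM in the control library (0.56 and 0.53). In the monocyte gate Psme1 was the 1 member of 39 past 1.5-fold in each library. There 6.04% of all genes in the knockdown and 6.98% in the control library were higher. No member was 1.5-fold lower, against 5.78% and 5.63% of all genes. The sum of the family in the monocyte gate stood at 0.943-fold in the knockdown and 0.938-fold in the control library.

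In the mast cell and basophil gate the sum was 0.844-fold the progenitor level in the knockdown (log2 -0.24, interval -0.27 to -0.22) and 0.793-fold in the control library (-0.34, interval -0.37 to -0.30). Respiratory chain genes were also lower there, at -0.17 and -0.27, and ribosomal protein genes higher, at 0.27 and 0.31. These cells were shallower, at a median of 8053 UMIs against 11337 in knockdown progenitor cells, and 11081 against 19830 in control cells. The part of depth was not tested. Psme1 was again the 1 gene of 39 that was 1.5-fold higher in each library, at 205 CPM against 135 in progenitor cells of the knockdown library and 213 against 134 in the control library. Of all genes 9.81% were higher in the knockdown and 12.2% in the control library. Psmd13 and Psmd3 were 1.5-fold lower in the knockdown library, 2 of 39, where 11.3% of all genes were, and 6 of 39 were lower in the control library, where 18.0% were. Psmd3 was the 1 gene of 39 lower in both, against 7.95% of all genes. It had 58.2 CPM in this gate and 97.2 CPM in progenitor cells of the knockdown library, and 48.9 and 89.7 CPM in the control library.

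The immunoproteasome genes, which the naming rule leaves out, also differed between the gates. Psmb8, whose product replaces Psmb5, had 490 CPM in dendritic and 304 CPM in progenitor cells of the knockdown library and 507 and 321 CPM in the control library. In late neutrophil cells it had 161 CPM in the knockdown and 122 CPM in the control library. Psmb10, whose product replaces Psmb7, had 37.1 CPM in late neutrophil and 131 CPM in progenitor cells of the knockdown library, and 35.5 and 120 CPM in the control library. It was close to the progenitor level in dendritic cells, at 120 CPM in the knockdown and 127 CPM in the control library. Psmb9, whose product replaces Psmb6, had 147 CPM in dendritic and 52.5 CPM in progenitor cells of the knockdown library, and 102 and 60.6 CPM in the control library. In late neutrophil cells Psmb9 had 55.8 CPM in the knockdown and 50.8 CPM in the control library. The summed level of Psmb8, Psmb9 and Psmb10 over that of Psmb5, Psmb6 and Psmb7 was 1.14 in the knockdown and 0.962 in the control library in dendritic cells. It was 0.695 and 0.720 in monocyte cells, 0.731 and 0.774 in mast cell and basophil cells, and 0.449 and 0.459 in progenitor cells. It was lowest in neutrophil cells, at 0.281 in each library in the early gate and 0.319 and 0.303 in the late gate.

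**Figure D4:**
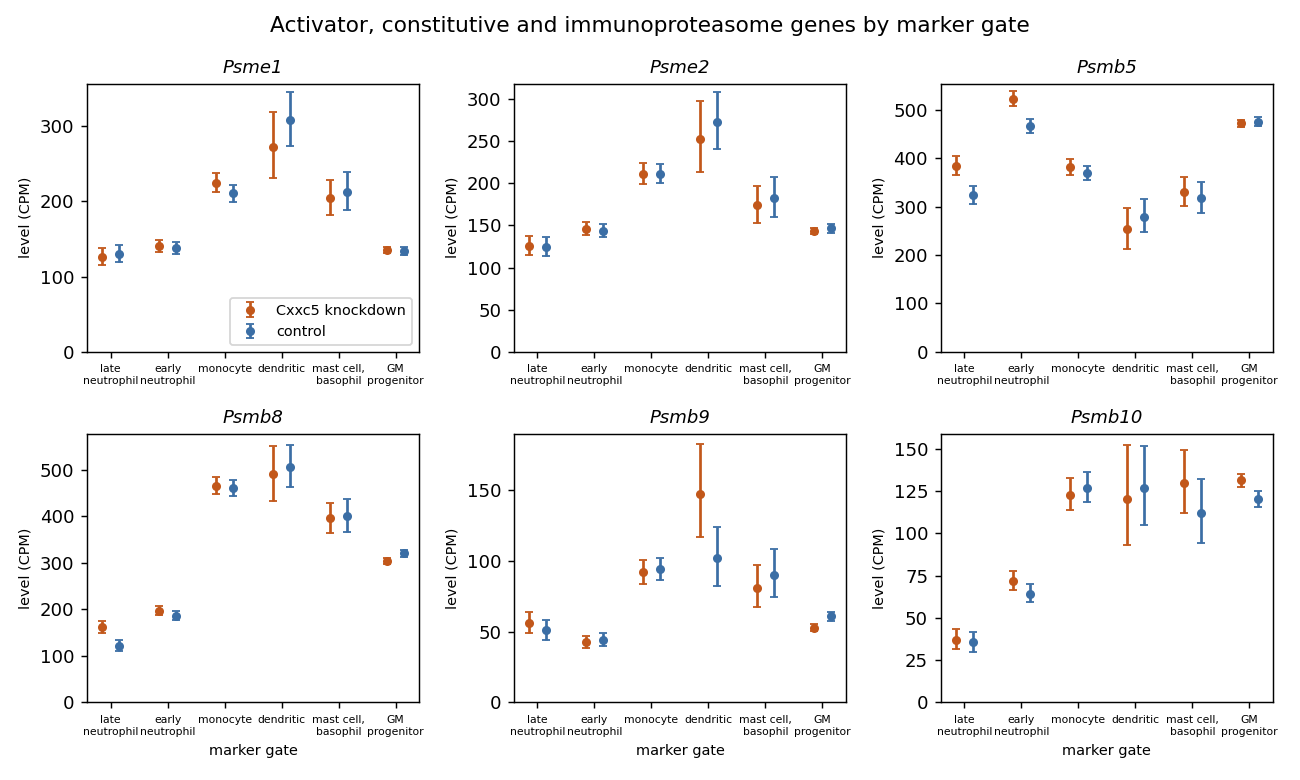
Levels of the PA28 genes Psme1 and Psme2, the constitutive catalytic gene Psmb5 and the immunoproteasome genes Psmb8, Psmb9 and Psmb10 in 6 marker gates, as CPM with 95% counting intervals, for the Cxxc5 knockdown (left of each pair) and control libraries. Psme1, Psme2 and Psmb8 are highest in dendritic cells, where Psmb5 is lowest.

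Most members tracked the rest of the family across the gates. The Pearson correlation of a gene with the sum of the other members over the 6 gates had a median of 0.89 in the knockdown and 0.90 in the control library, and 24 of 39 genes were above 0.8 in each. These values describe 6 points that share library and depth, and carry no test. No share over all genes stands beside them, so they do not set the family apart from other genes. The median gene was also below the progenitor level in the late neutrophil gate (log2 -0.56 in knockdown and -0.62 in control cells). In the dendritic gate it was at -0.23 and -0.24. The correlations were negative for 2 genes in the knockdown library, Psme1 (-0.39) and Psme2 (-0.33). In the control library they were negative for 3, Psme1 (-0.21), Psme2 (-0.01) and Psmd10 (-0.09). Ranked by the smaller of their log2 spans in the 2 libraries, Psmd3, Psmc3ip and Psmd7 had the widest spans over the gates. In the knockdown library alone Psmc6 (1.39) was wider than Psmd3 (1.36), and in the control library alone Psmd10 (1.37) was wider than Psmc3ip (1.22). Psmc3ip ran between 14.2 CPM in dendritic and 43.0 CPM in progenitor cells of the knockdown library, and between 17.8 and 41.4 CPM in the control library. Its dendritic levels rest on 8 and 17 UMIs. Ranked by the larger of the spans, Psmb1, Psmd8 and Psmb4 were the narrowest, although Psmd14 (0.48) was narrower than Psmb4 (0.54) in the knockdown library and Psmd4 (0.46) narrower than Psmd8 (0.62) in the control library. Psmb1, a non-catalytic beta subunit, stayed between 364 and 442 CPM in the knockdown and between 361 and 489 CPM in the control library. Psmd8 stayed between 170 and 217 CPM in the knockdown and between 152 and 233 CPM in the control library, and Psmb4 between 211 and 307 and between 191 and 297 CPM.

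Which gate was lowest for a gene differed between the libraries. Of 39 genes, 24 were lowest in dendritic and 14 in late neutrophil cells of the knockdown library, against 12 and 26 in the control library. The progenitor gate was highest for 18 genes in the knockdown and 22 in the control library, and the early neutrophil gate for 13 and 7. No share over all genes stands beside these counts, so they describe the members only. The median gene was itself below the progenitor level in the late neutrophil and dendritic gates.

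Within gates, the libraries differed in the late neutrophil cells. The sum there was 6191 CPM in knockdown and 5466 CPM in control cells (log2 0.18, interval 0.15 to 0.21). That ratio became 0.27 after thinning and 0.10 after median-of-ratios scaling. Thinning kept 412 of 499 knockdown and 301 of 333 control cells of this gate. Of 39 genes, 12 were 1.2-fold higher in the knockdown library, where 22.6% of all genes were, and none was lower, where 10.8% of all genes were. The members' median log2 ratio was 0.19 and that of all genes 0.08. The ATPase gene Psmc4 had 123 CPM in knockdown and 89.0 CPM in control cells (0.46, interval 0.26 to 0.66), and the base subunit gene Psmd2 had 93.2 and 70.8 CPM (0.40, interval 0.17 to 0.62). Psma3, an alpha ring gene, had 300 and 239 CPM (0.33, interval 0.20 to 0.45). These 3 were named after their values were seen. Late neutrophil cells of the knockdown library also held more progenitor marker UMIs (median 128.7 against 69.35 per 10000) and fewer early neutrophil marker UMIs (1432 against 1624), whose part in this difference was not tested.

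In the other gates with many cells the libraries were close. The progenitor gate had a summed log2 ratio of 0.01, with 0 of 39 genes 1.2-fold higher or lower, against 2.53% and 3.17% of all genes. The early neutrophil gate had 0.07 (interval 0.06 to 0.09), also with 0 of 39 in either direction, against 7.55% higher and 6.87% lower among all genes. The monocyte gate had 0.02, with 0 of 39 in either direction, against 5.90% and 7.78%.

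The 2 smallest gates gave wider scatter. In dendritic cells the sum was lower in the knockdown library (log2 -0.12, interval -0.18 to -0.06), with 2 of 38 genes 1.2-fold higher, where 26.4% of all genes were, and 8 of 38 lower, where 22.7% were. The members' median was -0.15, against 0.02 for all genes, and the sum was -0.14 after median-of-ratios scaling. The ATPase gene Psmc6 had 53.1 CPM in knockdown and 89.0 CPM in control dendritic cells (-0.75, interval -1.40 to -0.13) and rested on 30 and 85 UMIs. Early neutrophil markers summed to 56.3 UMIs per 10000 in the knockdown dendritic gate and 4.96 in the control, at medians of 2.62 and 2.32, and the part of these cells was not tested. In mast cell and basophil cells the sum was 0.10 higher on the log2 scale (interval 0.06 to 0.14), with 7 of 39 genes higher, where 24.8% of all genes were, and 1 of 39 lower, where 17.6% were. The lower one was Psmd13, a lid subunit gene, with 68.9 CPM in knockdown and 94.6 CPM in control cells. Eosinophil markers in this gate summed to 0.174 UMIs per 10000 in knockdown and 2.45 in control cells, with 2 and 3 of 4 markers detected and a median of 0 in each, and their part in the difference was not tested.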

How the data were processed

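The deposited tables, 1 per library, hold UMI counts for each gene and cell barcode. The submitters' processing notes name Cell Ranger 2.1.1 and the build mm10 for the 10x 3' v2 libraries from which the authors made these counts. Neither the annotation release nor the treatment of multiply mapped reads is given in the sources used here.

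Cells with at least 500 genes and at most 10% mitochondrial UMIs were kept, which removed 11 knockdown and 13 control barcodes. Doublets were kept. Each cell went to the first gate it met by marker UMIs per 10000: dendritic 10, mast cell and basophil 10, late neutrophil 100, early neutrophil 100, monocyte 5, granulocyte-monocyte progenitor 100. Counts were summed over cells and divided by total UMIs. Ratios carry exact (Clopper-Pearson) intervals from the split of UMIs and levels exact Poisson intervals, at 95%. Where a few cells carry much of a gene's total, such intervals come out too narrow. A gene was counted as higher or lower past 1.2-fold between libraries or 1.5-fold between gates, among genes of at least 20 CPM in either group. All genes measured at the same level gave the background shares.

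Named genes were the 3 most and least abundant members and the 3 highest and lowest library ratios, both among members of at least 20 CPM. The catalytic and activator genes and the 3 widest and narrowest spans over gates were also named. Members, gene lists, gate thresholds and motifs were chosen with earlier results of these data known. Genes were placed with GENCODE M21 (GRCm38), and promoters came from RefSeq. Python 3.11.15, numpy 2.4.6, scipy 1.17.1 and, for Scrublet, scanpy 1.11.5 were used, and the arithmetic was tested on simulated data. Alternatives were other scalings and denominators, other level minimums, all barcodes, removal of likely doublets, thinning to 5000 UMIs, equal weight per cell, doubled gate thresholds, fixed gate shares and subunits alone.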

Additional observations from a re-analysis of the deposited data

Results flagged for a closer look

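Psmd13, a lid subunit gene, was picked out because its knockdown over control ratio took opposite directions in 2 gates. In late neutrophil cells it had 116 CPM in the Cxxc5 knockdown and 94.3 CPM in the control library, a log2 ratio of 0.29 (interval 0.09 to 0.49). In mast cell and basophil cells it had 68.9 CPM in the knockdown and 94.6 CPM in the control library, a log2 ratio of -0.46 (interval -0.85 to -0.07). The mast cell and basophil values rest on 103 and 120 UMIs. At 1.2-fold, 22.6% of all genes were higher in the late neutrophil and 17.6% lower in the mast cell and basophil gate. No share of all genes with opposite directions stands beside these values. Other members also changed direction. In late neutrophil and dendritic cells, Psmc5 had 0.37 and -0.40 and Psmd1 0.27 and -0.40. Psme4 had 0.28 in mast cell and basophil and -0.47 in dendritic cells. These intervals spanned equality except that of Psmc5 in late neutrophil cells. With 1 library per group, the difference between the gates was not tested.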

How the results depend on the processing

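No paired analysis was possible because each group has 1 pooled library and the labels give no replicate numbers. For the same reason no replicate could be left out. Over all cells no member passed 1.2-fold under any alternative except without a level minimum, where 1 did (Psma8, 210 and 130 UMIs). The summed knockdown over control log2 ratio of 0.05 became 0.12 in cells thinned to 5000 UMIs, 0.10 with equal weight per cell, 0.04 without mitochondrial, ribosomal and marker genes in the total, 0.03 with both libraries given the control's gate shares and 0.02 with median-of-ratios scaling. Within gates, thinning gave 0.27 (late neutrophil), 0.11 (early neutrophil), 0.09 (monocyte), 0.18 (mast cell and basophil) and 0.06 (progenitor), and equal weight 0.25 (late neutrophil), 0.11 (early neutrophil), 0.04 (monocyte) and 0.04 (progenitor). The late neutrophil ratio was 0.24 with doubled thresholds, 0.15 with the smaller total and 0.10 with median-of-ratios scaling, which gave 0.04 (early neutrophil) and 0 (progenitor).

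For gates over progenitor, median-of-ratios scaling changed most and reversed the late neutrophil sum of the knockdown library to 0.08 (control -0.02), with 1 member higher and 2 lower in both libraries. It gave 0.15 and 0.11 (early neutrophil, knockdown and control), -0.06 and -0.06 (monocyte), -0.30 and -0.15 (dendritic, 3 members lower in both) and -0.13 and -0.18 (mast cell and basophil). By construction it takes the median gene's shift off each ratio. The smaller total gave -0.28 and -0.41 (late neutrophil, 9 lower), 0.03 and -0.02 (early neutrophil), -0.06 and -0.07 (monocyte), -0.44 and -0.32 (dendritic) and -0.14 and -0.20 (mast cell and basophil). Equal weight gave -0.53 and -0.74 (late neutrophil), -0.13 and -0.13 (monocyte) and -0.30 and -0.37 (mast cell and basophil, 4 lower). Doubled thresholds gave -0.59 and -0.82 (late neutrophil), -0.04 and -0.11 (early neutrophil), -0.18 and -0.18 (monocyte, 2 members higher and 1 lower) and 0 higher and 3 lower in mast cell and basophil cells. Thinning gave -0.69 (late neutrophil, control), -0.01 (early neutrophil, knockdown), -0.12 (monocyte, control) and -0.59 (dendritic, knockdown). Removing likely doublets gave -0.67 (late neutrophil, control), and all barcodes gave 2 members lower in mast cell and basophil cells. No share over all genes stands beside the counts of members under settings other than median-of-ratios scaling, so those counts describe the members only. The cause of the other shifts was not tested. The remaining 189 summed values and counts kept close to the reported ones. Of 308 values of single members under the alternatives, 64 moved and 244 kept close.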
